A study of Mus musculus with 375 samples.

Results

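The genes described here are 32 transcripts of the protein-folding machinery of the endoplasmic reticulum (ER) and of the signalling that responds when folding there fails. They were chosen by name as a set that covers these functions, with earlier results of these data known. All 32 were found among the 23420 genes of the table. By role they were 11 folding chaperones and co-factors, 4 protein disulfide isomerases, 4 genes of the IRE1 and ATF6 arms, 5 of the PERK, ATF4 and CHOP branch, 5 of ER-associated degradation and 3 of the translocon. Their transcripts were measured in single intestinal cells of mice fed a high-fat diet (HFD) or a control diet. The assay was Smart-seq2, in which each cell is lysed in its own well and its mRNA copied over the full length. The cells had been gated by FACS on Lgr5, a marker of the stem cells at the crypt base, and the titles place them in the sets HFD 1, HFD 2, control 1 and control 2. The labels used here give no strain, age, genotype, Lgr5 reporter, diet composition or duration. Nor do they tie a set to 1 or several mice, so all p-values cover only the spread between these sets, which may be technical.

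Proteins bound for secretion or for membranes enter the ER through the Sec61 translocon and are folded there by chaperones of the Hsp70 and Hsp90 families, by the lectins calnexin and calreticulin and by disulfide isomerases. When unfolded protein accumulates, the sensors IRE1, ATF6 and PERK start the unfolded protein response. IRE1 (through Xbp1) and ATF6 raise chaperone and degradation genes, whereas PERK slows translation and favours Atf4 and its target Ddit3, which encodes CHOP. In the intestine these genes are best known from Paneth and goblet cells, the secretory cells of the crypt, which load large amounts of protein into the ER.

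Of 375 cells, 367 had at least 2000 genes above 0 TPM, a length-adjusted measure of relative transcript abundance, and were used: 91, 92, 93 and 91 in HFD 1, HFD 2, control 1 and control 2. A median of 6857, 6349, 6895 and 6130 genes was detected per cell in the same order of sets. The number of reads behind a TPM value is unknown. Rn45s, the precursor of ribosomal RNA, made up 26.9% and 18.6% of TPM in the HFD sets, against 39.1% and 24.6% in the control sets. The 8 stem markers summed to 10505 and 12999 TPM in the HFD sets, against 7999 and 10248 TPM in the control sets. Transcripts of the 13 Paneth markers summed to 6398 and 591 TPM in the HFD sets, against 91.1 and 53.7 TPM in the control sets. Those of 8 enterocyte markers summed to 672 and 792 TPM in the HFD sets, against 136 and 277 TPM in the control sets, and those of 9 proliferation markers to 1111 and 1108 TPM in the HFD sets, against 692 and 840.5 TPM in the control sets. Markers of plasma and B cells, T cells, myeloid cells and stromal cells summed to under 5 TPM per list in every set.

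Promoters of several of these genes carry the sequence by which the response is best known, the ER stress element, with CCAAT and CCACG separated by 9 bases. Its letters were searched on both strands of windows from 250 bases before to 50 after the start of each gene (RefSeq, GRCm38.p6), which were on hand for 26 of the 32 members; Atf6, Derl1, Ern2, Hyou1, Manf and Sec61a1 had no window. The exact element stood in 8 of the 26 windows (30.8%), against 0.119% of 32851 windows of the same length. The 9 copies in these 8 genes are shown because they recur across chaperone promoters, with the fixed bases in capitals. They read on the gene's own strand in Hspa5, Pdia6, Canx, Dnajc3, Syvn1 and the far copy of Hsp90b1, and on the other strand in Calr, Creld2 and the near copy of Hsp90b1. Their farther ends lay between 44 and 212 bases before the start.
Hspa5, chr2:34772025-34772043, gene on +: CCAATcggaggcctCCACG
Calr, chr8:84847075-84847093, gene on -: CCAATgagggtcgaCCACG
Hsp90b1 near copy, chr10:86705533-86705551, gene on -: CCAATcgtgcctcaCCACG
Hsp90b1 far copy, chr10:86705638-86705656, gene on -: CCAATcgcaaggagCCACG
Canx, chr11:50325800-50325818, gene on -: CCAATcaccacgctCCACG
Pdia6, chr12:17266491-17266509, gene on +: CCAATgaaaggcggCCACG
Dnajc3, chr14:118937827-118937845, gene on +: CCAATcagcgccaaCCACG
Creld2, chr15:88819520-88819538, gene on +: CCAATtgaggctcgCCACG
Syvn1, chr19:6046532-6046550, gene on +: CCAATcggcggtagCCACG

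A shorter relative, ER stress element II (ATTGG and CCACG with 1 base between), stood in 2 of the 26 windows (7.69%), against 0.0365% of all windows. Its copies in Herpud1, 52 bases before the start, and in Dnajb11, 7 bases after it, were the following.
Herpud1, chr8:94386377-94386387, gene on +: ATTGGgCCACG
Dnajb11, chr16:22857852-22857862, gene on +: ATTGGcCCACG

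The CHOP-type composite element TTGCATCA stood in 1 of the 26 windows, that of Herpud1 (3.85%, against 0.895% of all windows), and TGACGTGG, the unfolded protein response element, in 0 of 26 (against 0.676%). With at most 1 of the 10 fixed bases of the ER stress element changed, 13 of 26 windows held it (50%, against 1.5%). These are matches of letters and no binding was measured. The windows of the 3 genes called in the diet comparisons, Calr, Sdf2l1 and Pdia6, and that of Hspa5, the gene in which the element was long studied, are given whole, 5′ to 3′ on the gene's strand, with exact elements in capitals (in Calr the element reads on the other strand). The window of Sdf2l1 held none of the 4 motifs.
Calr, chr8:84846882-84847181, gene on -: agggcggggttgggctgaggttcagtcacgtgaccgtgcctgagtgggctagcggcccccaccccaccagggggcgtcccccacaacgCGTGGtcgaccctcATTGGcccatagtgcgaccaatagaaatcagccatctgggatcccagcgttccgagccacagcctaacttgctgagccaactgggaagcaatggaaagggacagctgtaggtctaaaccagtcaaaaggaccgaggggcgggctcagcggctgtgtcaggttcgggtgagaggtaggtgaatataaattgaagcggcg
Sdf2l1, chr16:17132334-17132633, gene on -: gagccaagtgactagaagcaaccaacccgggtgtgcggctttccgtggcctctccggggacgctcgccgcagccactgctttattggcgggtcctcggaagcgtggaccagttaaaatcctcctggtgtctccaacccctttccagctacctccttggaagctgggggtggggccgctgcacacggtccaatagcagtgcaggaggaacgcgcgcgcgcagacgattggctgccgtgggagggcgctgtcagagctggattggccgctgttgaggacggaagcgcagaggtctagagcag
Pdia6, chr12:17266339-17266638, gene on +: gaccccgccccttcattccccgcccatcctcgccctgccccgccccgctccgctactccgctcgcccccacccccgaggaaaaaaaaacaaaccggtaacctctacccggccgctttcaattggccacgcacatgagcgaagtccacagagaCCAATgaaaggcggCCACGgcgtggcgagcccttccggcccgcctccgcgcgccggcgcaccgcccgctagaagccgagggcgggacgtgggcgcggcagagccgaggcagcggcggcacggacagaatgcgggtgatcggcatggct
Hspa5, chr2:34771840-34772139, gene on +: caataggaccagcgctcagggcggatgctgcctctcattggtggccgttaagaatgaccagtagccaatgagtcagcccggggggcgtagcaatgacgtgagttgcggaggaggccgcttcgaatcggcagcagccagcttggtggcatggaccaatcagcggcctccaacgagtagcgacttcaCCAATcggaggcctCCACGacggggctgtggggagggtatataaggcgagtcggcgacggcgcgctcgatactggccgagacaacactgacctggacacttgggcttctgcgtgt

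Levels ranged over several orders of magnitude among the members, with isomerases, large chaperones and Sec61 subunits at the top and the sensors Ern1, Ern2, Atf6 and Eif2ak3 among the low ones. Levels are means of TPM over the cells of a set, and TPM is per transcript length, so levels may be set side by side. P4hb stood highest, at 433 and 472 TPM in the HFD sets and 333 and 349.8 TPM in the control sets, and was found at 1 TPM or more in 98.9% to 100% of cells. Trib3, a pseudokinase induced by CHOP, stood lowest, at 0.196 and 0.632 TPM in the HFD sets and 0.927 and 0 TPM in the control sets. Canx and Sec61a1 were detected in 100% of the 367 cells, whereas Eif2ak3 was in 13.1%, Ern2 in 12.8% and Ddit3 in 19.1%. In 11 members exons of another annotated gene overlap (Hsp90b1, Dnajb9, Manf, Pdia3, Pdia4, Pdia6, Eif2ak3, Ddit3, Ppp1r15a, Syvn1 and Sec61a1), and Smart-seq2 does not mark the strand, so reads of the partners may be shared.

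**Figure D1:**
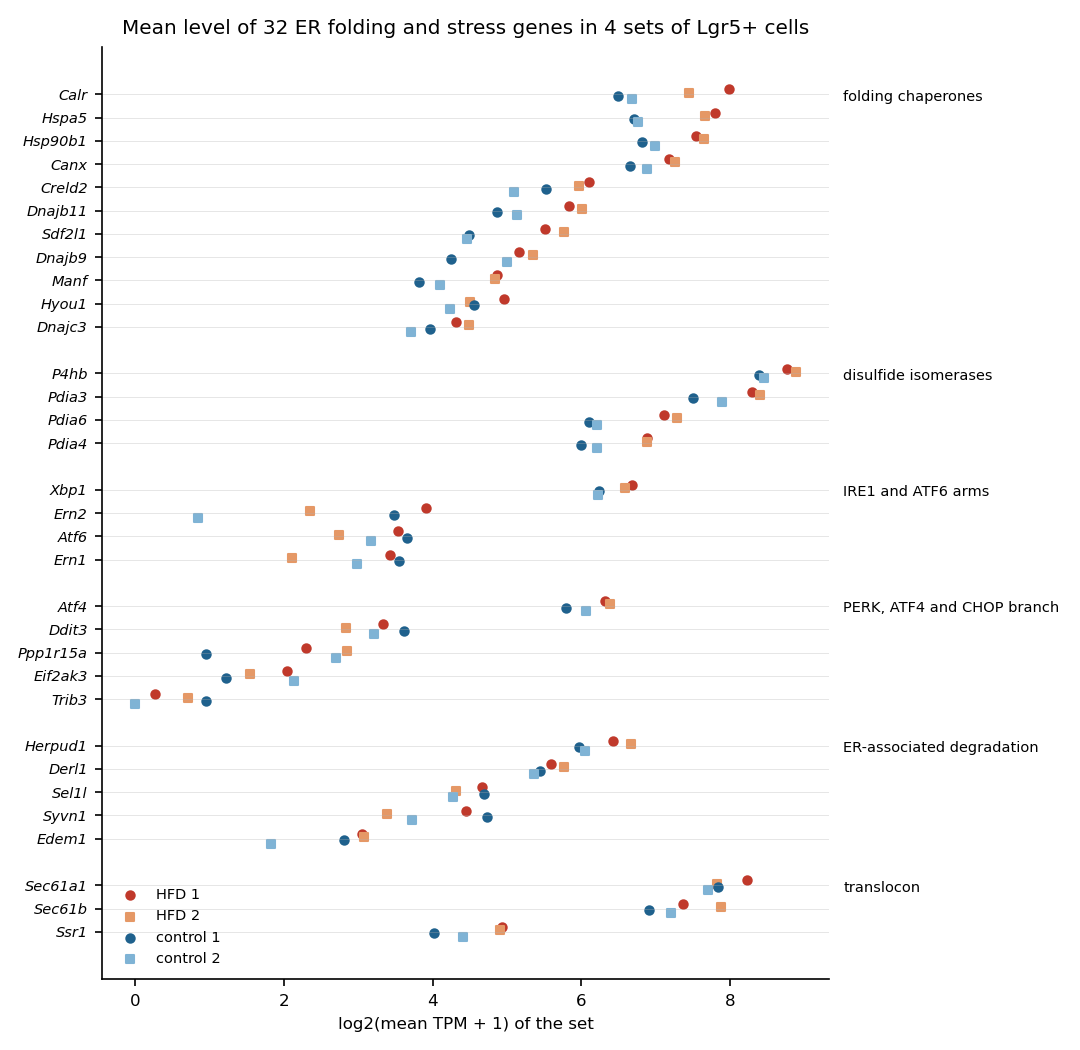
Mean level of each of the 32 members in the 4 sets, as log2(mean TPM + 1) on the x axis, grouped by role; red and orange are HFD 1 and HFD 2, dark and light blue control 1 and control 2. In the folding chaperones and isomerases both HFD sets lie to the right of both control sets in 14 of 15 genes, while most sensors and branch genes overlap.

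Folding genes were higher in the cells of HFD mice. All 15 chaperones and isomerases had a positive log2 fold change (HFD over control), from 0.34 to 1.17 with a median of 0.72. Of all 11652 genes, 7285 were positive. The median over all 11652 genes tested was 0.13, so the folding genes stood 0.60 above it. Both HFD sets lay above both control sets in 14 of the 15, against 29.5% of all genes. In limma's test across all genes (2 sets a diet, log2 of the mean TPM + 1, Benjamini-Hochberg threshold 0.05), 2 of the 31 members with a mean of at least 1 TPM rose, Calr and Sdf2l1, against 0.369% of all genes. Over all genes 43 were called higher and 16 lower, against 5 and 1 when each cell's total excluded Rn45s, and 23 and 16 with median-ratio scaling. No member fell, against 0.137% of all genes, and no member had both HFD sets below both control sets, against 12.3% of all genes. Another 12 members had an unadjusted p under 0.05, all in the positive direction, and so had 1002 of the 11652 genes. In means over a set, more cells that express a gene and more RNA per cell cannot be told apart.

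Calr encodes calreticulin, a calcium-binding lectin chaperone that also helps load MHC class I. Its gene lies at chr8:84841850-84846934 on the minus strand (GRCm38). Calr averaged 253 and 173 TPM in the HFD sets, against 89.5 and 102 TPM in the control sets. HFD 1 was the highest set, and even the lower HFD set was clear of both control sets. The log2 fold change was 1.12 (SE 0.26, limma adjusted p = 0.0450). It was found in 97.8% to 100% of HFD cells and in 92.3% to 96.8% of control cells, and the level per cell differed. The median cell held 247 and 170.0 TPM in the HFD sets, against 78.9 and 86.8 TPM in the control sets.

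Sdf2l1 encodes a partner of ER DnaJ co-chaperones that keeps client proteins soluble (chr16:17130138-17132383, minus strand). It averaged 44.7 and 53.4 TPM in the HFD sets, against 21.5 and 21.0 TPM in the control sets, with control sets that nearly coincide. The log2 fold change was 1.17 (SE 0.26, limma adjusted p = 0.0376). The share of cells with the transcript differed too, and by more than in Calr. It was 62.6% (95% Clopper-Pearson interval 51.9 to 72.6%) and 52.2% (41.5 to 62.7%) of HFD cells, against 37.6% (27.8 to 48.3%) and 31.9% (22.5 to 42.5%) of control cells, with intervals for counting error over cells only. In the cells that held it, the mean was 71.3 and 102 TPM in the HFD sets, against 57.1 and 65.8 TPM in the control sets.

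Both calls depended on single sets and on the scaling. With 1 set left out its diet has a single set, which is assumed to vary like the sets of the other diet, here and in every such p-value. Calr did not pass without HFD 1 (log2 0.85, limma adjusted p = 0.356) or without control 1 (1.03, adjusted p = 0.0981), and Sdf2l1 did not pass without HFD 1 (1.29, adjusted p = 0.0585) or without HFD 2 (1.04, adjusted p = 0.305). With Rn45s left out of each cell's total, which moved the median of all genes to -0.05, no member passed. Calr then had a log2 fold change of 0.94 and Sdf2l1 of 1.012, and the 15 folding genes kept a median of 0.60 above that of all genes. On that scale 14 of the 15 still had both HFD sets above both control sets, against 17.9% of all genes.

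Hspa5, also called BiP, is the ER Hsp70 that binds unfolded chains and holds the stress sensors inactive. It averaged 222 and 202 TPM in the HFD sets, against 103 and 108 TPM in the control sets, a log2 fold change of 0.998 (SE 0.24, limma adjusted p = 0.0743). The 2 sets of a diet lay close together, and both HFD values were far above both control values. Hsp90b1, the ER Hsp90, had 186 and 199.6 TPM in the HFD sets, against 112 and 126 TPM in the control sets (log2 0.69, SE 0.25). Canx, the membrane-bound lectin calnexin, differed least among the abundant chaperones, at 144 and 152 TPM against 99.8 and 117 TPM in the control sets (log2 0.45, SE 0.24).

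The DnaJ co-chaperones, which deliver clients to Hspa5 and stimulate its ATPase, had positive fold changes, and none was called. Dnajb11 averaged 56.0 and 63.3 TPM in the HFD sets, against 28.1 and 34.2 TPM in the control sets (log2 0.92, SE 0.25, limma adjusted p = 0.136). Dnajb9 had 34.8 and 39.9 TPM against 18.0 and 30.995 TPM in the control sets, and Dnajc3, which also restrains PERK, had 18.9 and 21.4 TPM against 14.6 and 12.1 TPM. In these 3 genes both HFD sets lay above both control sets, against 29.5% of all genes, although in Dnajb9 control 2 came close. Manf, a secreted ER factor, had 28.2 and 27.7 TPM in the HFD sets, against 13.1 and 16.1 TPM in the control sets (log2 0.90, SE 0.28). Creld2, an ER protein with isomerase activity, had 67.8 and 61.7 TPM in the HFD sets, against 45.0 and 33.3 TPM in the control sets (log2 0.72, SE 0.25). Hyou1, a large Hsp70-like exchange factor for Hspa5, was the exception: it had 30.2 and 21.8 TPM in the HFD sets and 22.4 and 17.8 TPM in the control sets, which overlap (log2 0.34, SE 0.28).

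The disulfide isomerases make and shuffle disulfide bonds in the ER. Pdia6 averaged 137 and 155 TPM in the HFD sets, against 68.0 and 73.4 TPM in the control sets, and missed the threshold (log2 1.04, SE 0.24, limma adjusted p = 0.0532), which it passed without control 2 (adjusted p = 0.0424), with means of cell log2 values (log2 1.58, adjusted p = 0.00488) and in cells with at least 4000 genes (adjusted p = 0.0486). Pdia4 had 117.4 and 116.6 TPM in the HFD sets, against 62.9 and 72.9 TPM in the control sets (log2 0.78, SE 0.24). Pdia3, the partner of calnexin and calreticulin, had 313 and 339 TPM in the HFD sets, against 181 and 237 TPM in the control sets (log2 0.65, SE 0.26). P4hb, which is also a subunit of prolyl 4-hydroxylase, had the smallest fold change of the 4 (log2 0.40, SE 0.27). In all 4 both HFD sets lay above both control sets, against 29.5% of all genes.

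**Figure D2:**
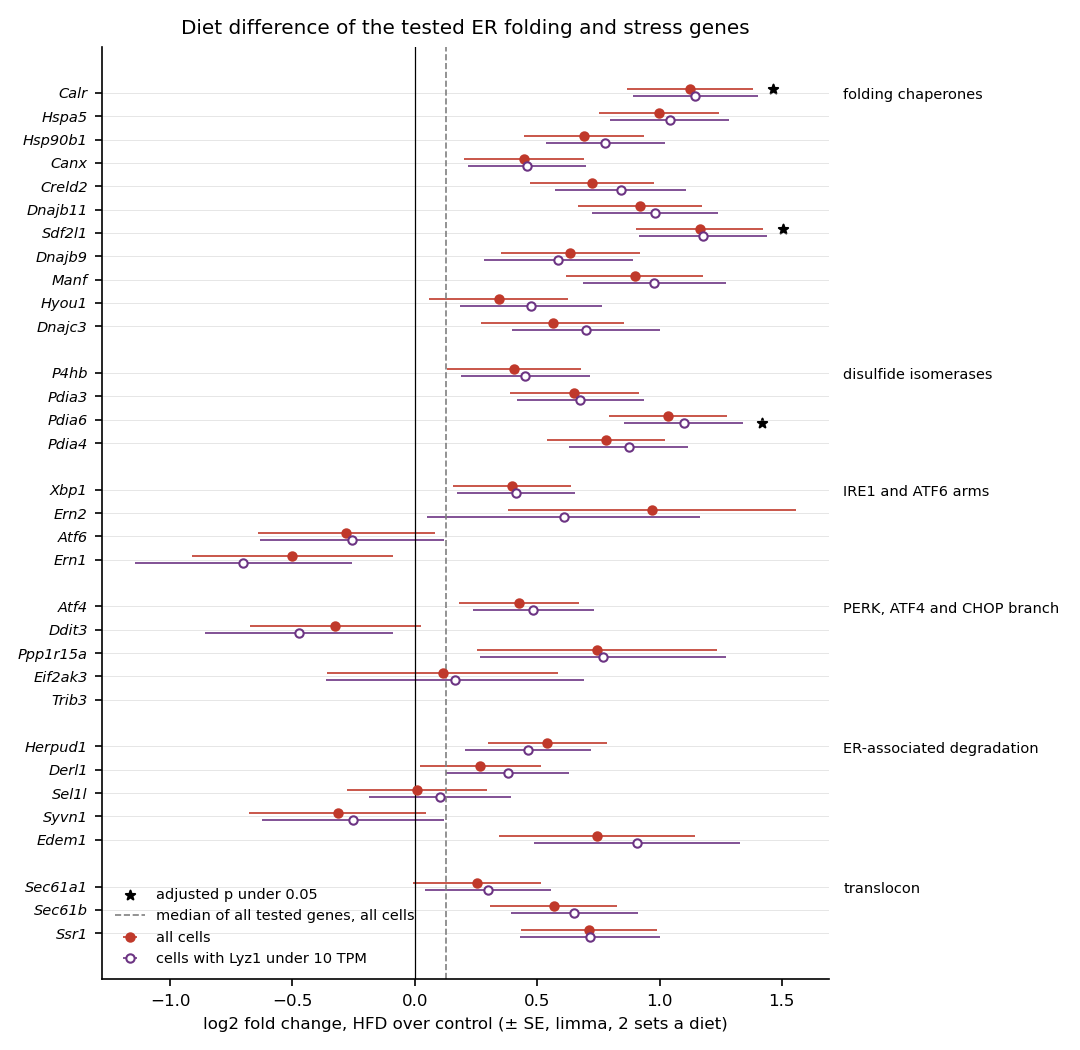
Log2 fold change of HFD over control with its standard error for the 31 tested members, in all cells (filled) and in cells with Lyz1 under 10 TPM (open); the dashed line is the median of all tested genes (0.13) and stars mark an adjusted p under 0.05. The folding genes all lie right of 0, while the sensors and branch genes fall on both sides of it with wide errors.

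The sensors themselves showed no common direction. None of the 4 genes of the IRE1 and ATF6 arms was called by limma, 0 had an unadjusted p under 0.05, and their median was 0.06. Of the 4, 2 were positive, against 7285 of all 11652 genes. Ern1, the sensor IRE1 found in most cell types, had 9.76 and 3.29 TPM in the HFD sets and 10.7 and 6.89 TPM in the control sets (log2 -0.50, SE 0.41). Atf6 had 10.5 and 5.66 TPM in the HFD sets and 11.6 and 7.99 TPM in the control sets (log2 -0.28, SE 0.36). Both overlapped between the diets, and in both the sets numbered 1 stood above those numbered 2. Xbp1, the transcription factor made active by IRE1 splicing, had 101 and 95.2 TPM in the HFD sets, against 74.6 and 74.1 TPM in the control sets (log2 0.40, SE 0.24, limma adjusted p = 0.555). It was the 1 of 4 with both HFD sets above both control sets, near the 29.5% of all genes. Spliced and unspliced Xbp1 are summed in these gene-level values. With Rn45s left out of the total the sets of Xbp1 overlapped as well.

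The transcripts of the PERK, ATF4 and CHOP branch did not move as a block either. The activity of PERK and the amount of ATF4 protein were not measured. Of the branch's 5 genes 4 were tested, 0 were called by limma and 0 had an unadjusted p under 0.05. A positive log2 fold change was found in 3 of the 4, against 7285 of all 11652 genes, and the median was 0.27. Atf4 averaged 79.2 and 82.9 TPM in the HFD sets, against 54.6 and 66.2 TPM in the control sets (log2 0.43, SE 0.24, limma adjusted p = 0.534). It was the 1 of 4 with both HFD sets above both control sets, near the 29.5% of all genes. Ddit3 had 9.10 and 6.11 TPM in the HFD sets and 11.2 and 8.23 TPM in the control sets, which overlap (log2 -0.32, SE 0.35). It was found in 23.1% and 14.1% of HFD cells and in 24.7% and 14.3% of control cells, almost the same shares by set number. Ppp1r15a, the phosphatase subunit that lifts the block on translation, had 3.91 and 6.21 TPM in the HFD sets and 0.940 and 5.49 TPM in the control sets. Eif2ak3, which encodes PERK, had 3.12 and 1.91 TPM in the HFD sets and 1.34 and 3.38 TPM in the control sets. At such levels a difference of the size seen in the chaperones was not detectable: the standard errors of these 2 genes were 0.49 and 0.47. The branch median stood 0.14 above that of all genes, less than the spread of 0.27 between sets of 1 diet, and without control 1 it was -0.12. The difference between the folding genes and the branch was not tested.

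Genes of ER-associated degradation, which extract misfolded proteins and hand them to the proteasome, were mixed. None of the 5 was called, 1 (Herpud1) had an unadjusted p under 0.05, and their median was 0.27. Herpud1, a ubiquitin-like membrane protein strongly induced by ER stress, had 85.0 and 100.4 TPM in the HFD sets, against 61.4 and 65.0 TPM in the control sets (log2 0.54, SE 0.24). Edem1, a lectin for terminally misfolded glycoproteins, had 7.28 and 7.42 TPM against 6.02 and 2.53 TPM in the control sets, and the channel subunit Derl1 had 47.1 and 53.4 TPM against 42.6 and 40.3 TPM. In these 3 both HFD sets lay above both control sets, against 29.5% of all genes. The ubiquitin ligase Syvn1 and its adaptor Sel1l overlapped between the diets. Syvn1 had 20.7 and 9.48 TPM in the HFD sets and 25.6 and 12.3 TPM in the control sets. Sel1l had 24.4 and 19.0 TPM in the HFD sets and 24.9 and 18.4 TPM in the control sets (log2 0.01, SE 0.29). With Rn45s left out of the total the sets of Edem1 and Derl1 overlapped as well. Among the 3 translocon genes none was called and Ssr1 and Sec61b had an unadjusted p under 0.05. Ssr1, of the translocon-associated complex, had 29.7 and 29.1 TPM in the HFD sets, against 15.3 and 20.1 TPM in the control sets (log2 0.71, SE 0.28), and the channel subunit Sec61b had 164 and 235 TPM against 119 and 147 TPM. Sec61a1, the pore itself, overlapped, with 226 TPM in HFD 2 and 227 TPM in control 1.

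Other ER and stress genes were grouped in lists that hold no member. Over all 11652 genes, 7285 had a positive fold change. At an unadjusted p under 0.05, 1002 were on the higher and 289 on the lower side. Of 22 other ER folding genes tested 1 rose, Pdia5, an isomerase at 27.0 and 20.8 TPM in the HFD sets, against 7.44 and 7.79 TPM in the control sets (log2 1.52, SE 0.31, limma adjusted p = 0.0140), and their median was 0.32. All 28 genes of translocation and glycosylation had a positive fold change with a median of 0.44, 8 of them with an unadjusted p under 0.05, and none was called. Rpn1, of the oligosaccharyltransferase, had a log2 fold change of 0.65 (SE 0.24). None of 19 other degradation genes was called (median 0.13), and 1, Derl2, had an unadjusted p under 0.05. Of 21 other ATF4 and CHOP targets none was called (median 0.24), with 5 on the higher and 1 on the lower side at an unadjusted p under 0.05. The lowest adjusted p there were those of Aars, alanyl-tRNA synthetase, at 19.3 and 18.3 TPM in the HFD sets against 8.92 and 5.26 TPM in the control sets (log2 1.33, limma adjusted p = 0.0760), and of the serine synthesis gene Psat1 (log2 1.05, adjusted p = 0.0877). None of 11 eIF2 kinases and other ER sensors (median 0.12) and none of 8 immediate early genes (median 0.48) was called, with 1 in each list, Creb3l4 and Fos, at an unadjusted p under 0.05. Of 8 cytosolic heat shock genes 1 rose, Hsph1, at 58.6 and 57.7 TPM in the HFD sets against 24.2 and 22.3 TPM in the control sets (log2 1.29, SE 0.25, limma adjusted p = 0.0116), and all 8 were positive with a median of 0.65.

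Cell by cell, the folding genes were higher in HFD cells in the median and both quartiles, with broad overlap between the diets. The mean log2(TPM + 1) of the 15 folding genes had a median over cells of 5.84 and 5.37 in the HFD sets, against 4.50 and 4.64 in the control sets. The quartiles were 5.04 and 6.38 in HFD 1 and 4.59 and 6.14 in HFD 2, against 3.83 and 5.20 in control 1 and 3.95 and 5.15 in control 2. Both quartiles were higher in both HFD sets, but the lower quartile of HFD 2 was near the control medians, and its lowest cell, at 1.502, was below the lowest cells of the control sets, at 2.52 and 2.01. Stem, Paneth, enterocyte and proliferation transcripts were higher in both HFD sets, as given above. So were goblet markers, at 641 and 548 TPM in the HFD sets against 504 and 75.8 TPM in the control sets, and enteroendocrine markers, at 12.8 and 4.22 TPM in the HFD sets against 1.23 and 0.898 TPM in the control sets. The share of Rn45s overlapped between the diets. Their part in the result was not tested beyond the cell groups that follow. In cells with Mki67 at 10 TPM or more and in those under it, a split made after seeing the data, the folding median was 0.70 and 0.78, with no member called in either.

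**Figure D3:**
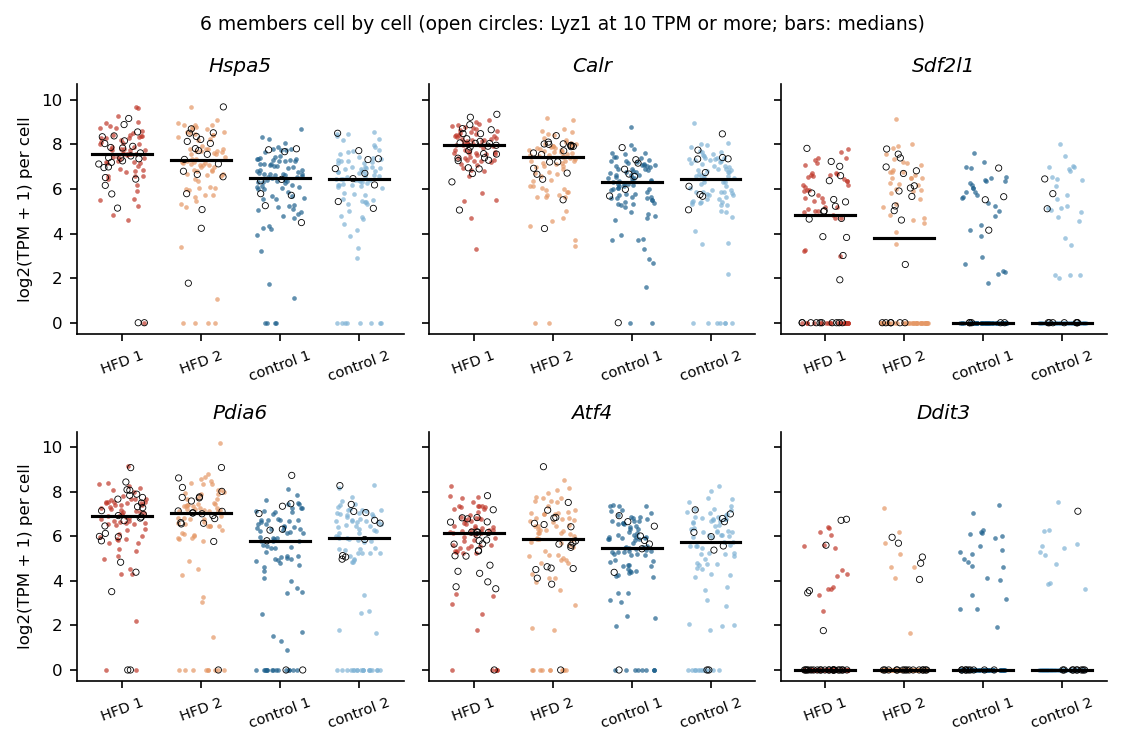
Log2(TPM + 1) of 6 members in each of the 367 cells by set, with the median as a bar and cells with Lyz1 at 10 TPM or more as open circles. The medians of Hspa5, Calr and Pdia6 are higher in both HFD sets, with overlap between cells of the diets. Sdf2l1 and Pdia6 are present in a larger share of HFD cells, and Ddit3 is at 0 in most cells of every set.

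The difference was present in cells without Lyz1 as well. Lyz1, the lysozyme of Paneth cells, was at 10 TPM or more in 27 and 20 HFD cells and in 9 and 10 control cells, and 301 cells lay below. In these 301 cells the Paneth markers summed to 198 and 133 TPM in the HFD sets, against 24.8 and 38.1 TPM in the control sets, so they were lower but not gone. All 15 folding genes were again positive, as were 7345 of all 11649 genes tested. The folding median was 0.84, against 0.14 for all genes. In 14 of 15 both HFD sets lay above both control sets, against 30.1% of all genes. Of the 31 tested members 1 rose, Pdia6 (log2 1.10, SE 0.24, limma adjusted p = 0.0488), against 0.258% of all genes. Calr (1.15) and Sdf2l1 (1.18) both had an adjusted p of 0.0517. Pdia6 passed without control 2 but not without any of the other 3 sets (adjusted p from 0.107 to 0.264), nor with Rn45s left out (0.93, adjusted p = 0.249).

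Cells with Lyz1 were then set against cells without it within each set. Of the 66 cells with Lyz1, 44 held at least 3 of the 13 Paneth markers at 10 TPM, and Lyz1 itself is 1 of the 13. By set these were 19 of 27 and 15 of 20 HFD cells and 8 of 9 and 2 of 10 control cells. In all cells with Lyz1 the Paneth markers, Lyz1 included, summed to 21094 and 2237 TPM in the HFD sets. In the control sets they summed to 709.9 and 180.0 TPM. The stem markers of the cells with Lyz1, at 9656, 11948, 9598 and 8079 TPM over the same sets, were near those of the cells without Lyz1 (10864, 13291, 7828 and 10516 TPM). These are means over cells, so they do not show that the same cells carried Paneth and stem transcripts. In HFD 1, 8 cells held at least 3 of 10 goblet markers at 10 TPM, and 4 of these had Lyz1. Their Paneth markers summed to 70036 TPM, against 264 TPM in the rest of HFD 1. Their stem markers summed to 2305 TPM, against 11296 TPM in the rest. The labels do not say whether a well could hold 2 cells.

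No member was called between cells with and without Lyz1. In limma with the set as a block, 0 of 31 members were called and 1 of 11585 genes was (0.00863%). Lyz1, by which the cells were split, was among the genes tested. With Rn45s and the Paneth and goblet markers left out of the total, 0 genes were called. The lack of calls therefore does not set the members apart from other genes. An unadjusted p under 0.05 was found for 2 members, against 133 of all genes on the higher and 485 on the lower side. The folding genes had a median difference of 0.00 (with over without), against -0.12 for all genes. Hspa5 averaged 193 and 223 TPM in HFD cells with Lyz1 and 234 and 197 TPM in HFD cells without. In control cells it averaged 108 and 135 TPM with Lyz1 and 103 and 104 TPM without. The difference was 0.09 (SE 0.14), with sets on both sides of 0. Calr and Pdia6 were higher with Lyz1 in all 4 sets, 2 of 31 members against 3.4% of all genes. Pdia6 had 144 and 177 TPM with Lyz1 against 134 and 149 TPM without in the HFD sets, and 122 and 110.3 TPM against 62.2 and 68.8 TPM in the control sets (difference 0.50, SE 0.17, limma adjusted p = 0.856). Dnajb11, Sel1l and Syvn1 were lower with Lyz1 in all 4 sets, 3 of 31 against 10.3% of all genes, and Sel1l had a difference of -0.70 (SE 0.26, limma adjusted p = 0.856).

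**Figure D4:**
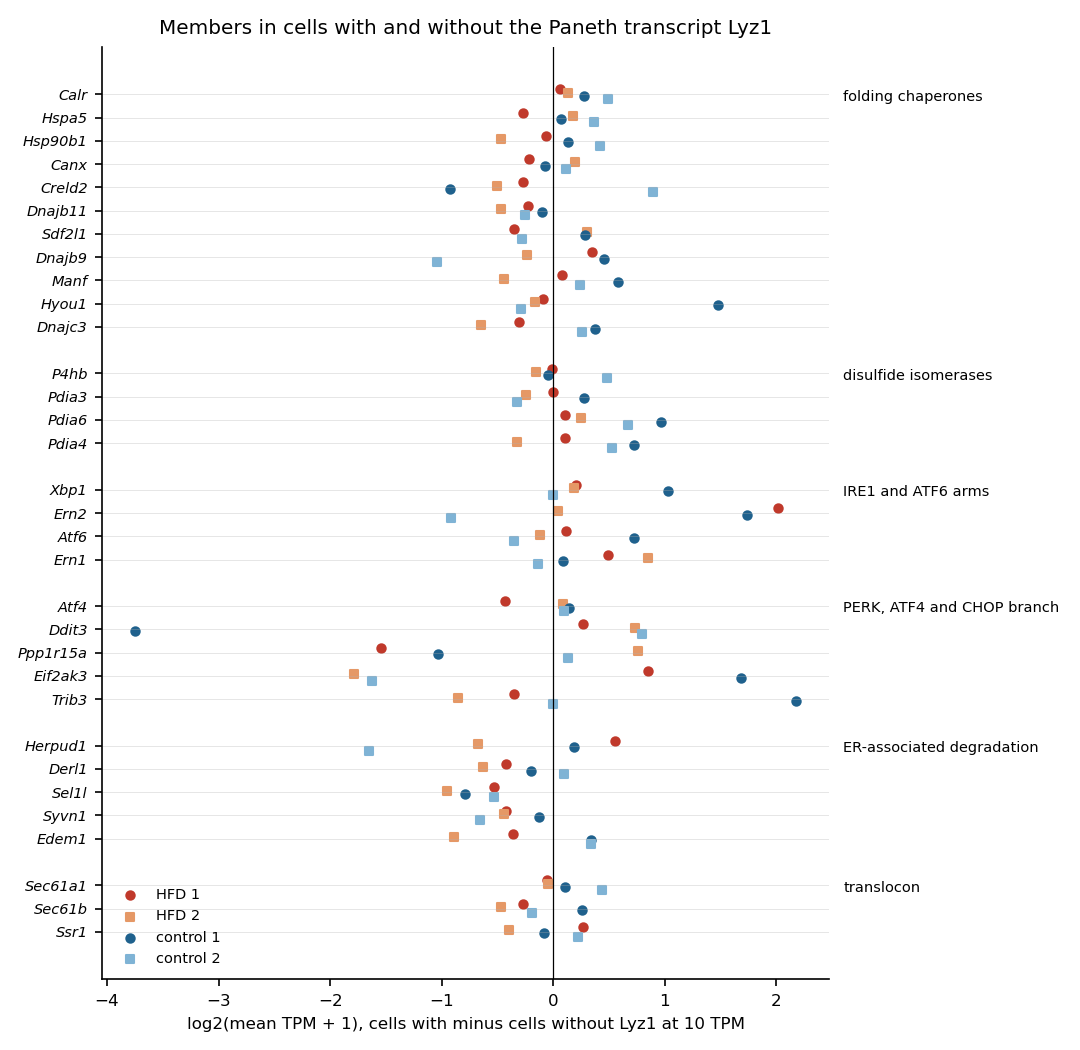
Difference in log2(mean TPM + 1) between cells with and without Lyz1 at 10 TPM, per set, for the 32 members by role; red and orange are the HFD sets, blue the control sets. The folding genes scatter around 0, and low genes such as Ddit3 and Eif2ak3 spread widely.

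The Lyz1 difference was also compared between the diets. Averaged over the 2 sets of a diet, it was lower in HFD than in control for 14 of the 15 folding genes. The median was -0.30 against 0.01 for all genes, of which 5876 of 11585 were positive. The sets of the diets did not overlap in Hsp90b1, Calr, Dnajc3, Manf, Pdia4 and Pdia6. In the other folding genes they overlapped. The share of all genes without overlap was not counted here, so this list does not set the folding genes apart. No member and no gene was called in limma (0% of 11585 genes). At an unadjusted p under 0.05 there were 473 genes. Without control 1 limma called 3 genes, and without control 2 it called 4 higher and 1 lower, none of them members. Among the members 1, Pdia4, had an unadjusted p under 0.05, and its adjusted p was 0.996. For Pdia4 the difference was 0.11 and -0.32 in the HFD sets, against 0.72 and 0.53 in the control sets. The control sets hold 9 and 10 cells with Lyz1, which limits the precision of this comparison.

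Between cells with and without goblet transcripts 1 member was called, with overlap between the cells of the 2 groups. Too few cells held Muc2 without Lyz1 to compare them (2, 2, 0 and 1 in HFD 1, HFD 2, control 1 and control 2), so cells with at least 3 of 10 goblet markers at 10 TPM were compared with the rest, a definition made after seeing the data. There were 23 such cells, 8 and 6 in the HFD sets and 5 and 4 in the control sets. Their Paneth markers summed to 70036 and 4672 TPM in HFD 1 and HFD 2 and to 854 and 11.8 TPM in control 1 and control 2, and 9 of them held Lyz1, so goblet transcripts are not the only secretory ones in them. Their stem markers summed to 2305, 11888, 6814 and 7422 TPM over HFD 1, HFD 2, control 1 and control 2, against 11296, 13076, 8067 and 10378 TPM in the rest. The part of these transcripts in the result was not tested. Ern2, the IRE1 form of mucus-secreting epithelia, rose by 4.27 on the log2 scale (SE 0.50, limma adjusted p = 0.00637), 1 of 31 members against 0.217% of all genes. In HFD cells with goblet markers it averaged 117 and 49.0 TPM, against 4.04 and 0.970 TPM without. In control cells it averaged 88.9 and 17.1 TPM with goblet markers, against 5.72 and 0.0411 TPM without. Every set showed a gap of many fold in the mean. Over HFD 1, HFD 2, control 1 and control 2, 6 of 8, 2 of 6, 3 of 5 and 2 of 4 cells with goblet markers held Ern2 at 1 TPM. So did 11 of 83, 9 of 86, 13 of 88 and 1 of 87 cells without them. Ern2 did not pass without HFD 1, without HFD 2 or without control 1 (adjusted p 0.141, 0.101 and 0.0696), nor in cells with Lyz1 under 10 TPM (log2 4.65, adjusted p = 0.250).

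Among the other members 6 had an unadjusted p under 0.05 in this comparison, against 1272 of all 11958 genes, and none was called. Sec61b (0.71, SE 0.20), Xbp1 (0.77, SE 0.27), Herpud1 (0.98, SE 0.35), P4hb (0.47, SE 0.17) and Hspa5 (0.48, SE 0.20) were on the higher side. Creld2 (-1.10, SE 0.40) was on the lower. Hspa5, Manf, Ern1, Ern2, Syvn1 and Sec61b were higher in all 4 sets, 6 of 31 members against 3.91% of all genes. The folding genes as a group had a median of -0.0024, against -0.26 for all genes. Across all cells Ern2 had 14.02 and 4.10 TPM in the HFD sets and 10.2 and 0.789 TPM in the control sets. Cells with goblet markers numbered 8 and 6 in the HFD sets and 5 and 4 in the control sets. The part of these numbers in the Ern2 levels was not tested. The diet difference of Ern2 passed without control 1 (log2 2.29, limma adjusted p = 0.00273) or without HFD 2 (1.75, adjusted p = 0.0481), but without control 2 it was -0.35.

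Within a set, folding genes varied together only loosely. Spearman correlations across the cells of each set were taken for the 276 pairs of the 24 members found in at least 50% of cells, as a description. The points of a set share its library preparation, depth differs between cells, and TPM of 1 cell sum to a fixed total. The 91 pairs of folding genes had a median rho of 0.17 (median over the 4 sets), against 0.10 over all 276 pairs. The highest were Hsp90b1 with Pdia3 (0.37), with Canx (0.34) and with Manf (0.34), and the lowest Hsp90b1 with Herpud1 (-0.15), Herpud1 with Sec61a1 (-0.13) and Pdia4 with Herpud1 (-0.12). Hsp90b1 also correlated with the number of genes detected in a cell (rho 0.31) and Herpud1 inversely (-0.12), so the number of genes moves with these pairs. Its part was not tested. Atf4 had a rho of 0.15 with Hspa5, and Xbp1 of 0.20.

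**Figure D5:**
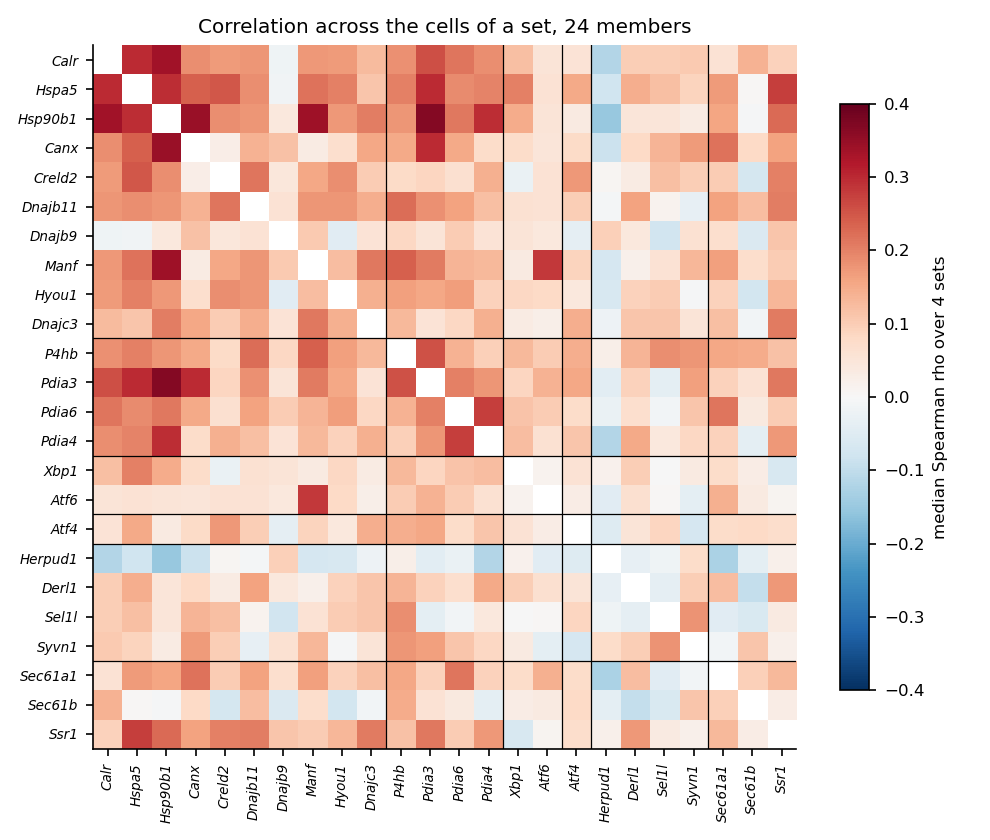
Median Spearman rho over the 4 sets for each pair of the 24 members found in at least 50% of cells, ordered by role with lines between roles; red is positive and blue negative on a scale from -0.4 to 0.4. The block of chaperones and isomerases is mostly red with a median of 0.17, and Herpud1 forms a pale blue line.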

How the data were processed

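Single cells sorted for Lgr5 were measured in 2 sets a diet. The authors deposited TPM for each gene in each cell. Bowtie2, RSEM and the build mm10 are named, with no versions and no annotation, per the submitters' processing notes. Each cell's TPM summed to between 999999.2 and 1000000.6. Symbols that a spreadsheet had turned into dates (27) were left out of the tests.

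Cells with under 2000 genes above TPM 0 were left out (2, 2, 1 and 3 in HFD 1, HFD 2, control 1 and control 2). TPM was averaged over the cells of a set, the unit of replication. Diets were compared with limma 3.58.1 (R 4.3.3), two-sided, with its trend option, on log2(mean TPM + 1). Genes averaging 1 TPM or more were tested, with p-values Benjamini-Hochberg adjusted over all genes at 0.05. The pseudocount understates changes of low genes. Cells with and without Lyz1 or goblet markers were averaged per set, with at least 3 cells a side, and fitted with the set as a block, the difference between diets on each set's difference. The planned split on Muc2 could not be fitted. The limma steps were tested on simulated data. Coordinates are GENCODE M21 (GRCm38), 1-based.

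The members and gene lists were chosen with earlier results of these data known. All 32 members are named, from other lists the called genes and those with the smallest p, up to 4, and of pairs the 3 highest and 3 lowest. Alternatives were another pseudocount, no filter, means of cell log2 values, other scalings, more genes per cell, no trend, other thresholds, leaving out each set and a block on the set number.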

Additional observations from a re-analysis of the deposited data

How the results depend on the processing

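All 15 folding genes kept a positive log2 fold change under all 15 alternatives for all cells, except Hyou1 at -0.0079 in cells with Mki67 under 10 TPM. Of 465 values of single members under these alternatives, 416 kept their direction and side of the threshold, 19 lost it, 15 gained it and 15 changed direction. The 2 members called over all cells were 3, with Pdia6 added, with means of cell log2 values and with at least 4000 genes, 1 with a pseudocount of 0.1, 0 with no filter, with Rn45s left out of the total, with median-ratio scaling, without limma's trend and in either group of cells split by Mki67, and from 0 to 3 when 1 set was left out. The 1 called in cells without Lyz1 was 0 with the smaller pseudocount, no filter, means of cell log2 values, Rn45s left out, median-ratio scaling, at least 4000 genes, no trend, a Lyz1 threshold of 1 TPM, Muc2 also under 10 TPM or fewer than 3 Paneth markers, 3 with a Lyz1 threshold of 100 TPM, and 0 to 4 without 1 set. The 1 called with goblet markers was 0 with no filter, no trend or Lyz1 under 10 TPM, and 0 to 1 without 1 set. Over all genes, 43 were called higher and 16 lower by diet, against 0 and 0 with no filter, 5 and 1 with Rn45s left out, 23 and 16 with median-ratio scaling, 5 and 1 without trend, 536 and 85 with the block, 7 and 2 with Mki67 and 8 and 2 without, 51 and 18 without HFD 1, 73 and 26 without HFD 2, 73 and 17 without control 1 and 108 and 38 without control 2. The splits by Mki67, by Paneth markers and by goblet markers were chosen after seeing the data. The causes were not tested, except that no filter adds genes to the adjustment. No member was called between cells with and without Lyz1, or in the difference of this between diets, under any alternative run, while over all genes 0 to 13 were called in the first.

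The folding median was 0.91 with means of cell log2 values, 0.56 with Rn45s left out, 0.59 with median-ratio scaling, 0.84 in cells with Lyz1 under 10 TPM and 0.69 to 0.88 without 1 set. The branch median was -0.12 to 0.56 without 1 set. Sel1l was -0.17 with Rn45s left out, -0.12 with median-ratio scaling and -0.41 in cells with Mki67 under 10 TPM, and Eif2ak3 was -0.0486 in cells with Mki67 at 10 TPM or more. Without 1 set, Ern1 ranged from -1.16 to 0.16, Ern2 from -0.35 to 2.29, Atf6 from -0.68 to 0.12, Eif2ak3 from -0.34 to 0.57, Ppp1r15a from -0.13 to 1.62, Sel1l from -0.20 to 0.22 and Syvn1 from -0.84 to 0.21.

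With the set number as a replicate block, 11 members were called over all cells and 11 in cells without Lyz1, in both Hspa5, Hsp90b1, Calr, Sdf2l1, Dnajb11, Manf, Creld2, Pdia3, Pdia4, Pdia6 and Sec61b. In the Lyz1 difference between diets the block gave 17 genes higher and 4 lower, none of them members. Nothing in the labels says that a number pairs sets. Over 11652 genes the difference HFD 1 minus HFD 2 correlated with control 1 minus control 2 at r = 0.233 and rho = 0.290, and over the 31 tested members at r = 0.703. The other member calls did not change with or without the block. The Muc2 comparison and its alternatives were not run. A limit of these data is 2 sets a diet and an unknown depth.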
